A study of Mus musculus with 32 samples.

Results

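The activity-regulated synaptic effectors described here are 9 genes, Arc, Homer1, Nptx1, Nptx2, Nptxr, Inhba, Plk2, Rheb, and Rasgrp1, chosen by name out of 49671 genes in a table of RNA-seq counts from cultured mouse cortical neurons. Each of the 9 symbols matched 1 Ensembl gene, and all 9 genes passed the filter on low counts at both time points. The neurons were wild-type (WT) cells of C57BL/6 mice, taken from embryonic forebrain. One set stayed untreated, and the others received Mut.oligo, a control oligoribonucleotide that carries a mutated let-7b sequence, or a miRNA (miR-92a-1-5p in some cultures and miR-124-5p in others), over 6 h or 5 d. The 8 groups held 4 libraries each, labelled as biological replicates, and no group differed in genotype. The labels also name an experiment batch for each library. There were 7 batches at 6 h and 6 at 5 d, and none spanned both time points.

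When a neuron fires, calcium entry activates transcription factors such as CREB, SRF, and MEF2, which switch on early genes. Some of these early genes encode transcription factors, while others, the effectors, act directly at synapses. Arc promotes removal of AMPA receptors from the postsynaptic membrane. The Homer1 gene encodes long scaffold proteins that link group I metabotropic glutamate receptors to their partners, and a short activity-induced form, Homer1a, that uncouples them. The pentraxins Nptx1 and Nptx2 are secreted proteins that cluster AMPA receptors, and Nptxr is their membrane-anchored relative. Inhba encodes the subunit of activin A, a secreted ligand of the TGF-beta family. Plk2 is a kinase that weakens synapses after prolonged activity, Rheb is the small GTPase that activates mTORC1, and Rasgrp1 is a calcium- and diacylglycerol-regulated activator of Ras.

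The mature mouse miR-92a-1-5p of RefSeq (GRCm38.p6, chr14:115044437-115044459, plus strand) is shown because the question at hand was whether neurons exposed to it change these genes. Capitals mark its seed, bases 2 to 8.
mmu-miR-92a-1-5p: aGGUUGGGauuugucgcaaugcu
The complement of this seed, CCCAACC, was found in an annotated 3' untranslated region of 2 of the 9 members, among them Nptx1, and in those of 2302 of 21006 genes (11.0%). The Nptx1 site, at chr11:119541290-119541316 on the minus strand (GRCm38), is shown with the match in capitals.
Nptx1: cagcagcagcCCCAACCtgccaccggc
Such a match of letters is a description and not a shown target site. Nptx1 did not pass the test after miR-92a-1-5p at either time point, as given below.

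Promoters of 5 members were at hand from RefSeq (GRCm38.p6), and those of Plk2 and Homer1 are shown as those with the most core matches of the motif described next. The letters TGACG, the core of the cAMP response element to which CREB binds, are in capitals on either strand.
Plk2 (chr13:110394794-110395093, plus strand): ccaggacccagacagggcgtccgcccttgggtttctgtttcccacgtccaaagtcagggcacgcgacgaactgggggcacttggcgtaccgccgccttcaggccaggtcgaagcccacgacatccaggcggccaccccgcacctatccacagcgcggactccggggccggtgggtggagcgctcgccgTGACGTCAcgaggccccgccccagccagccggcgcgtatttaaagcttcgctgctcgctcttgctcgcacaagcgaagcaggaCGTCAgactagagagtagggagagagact
Homer1 (chr13:93303507-93303806, plus strand): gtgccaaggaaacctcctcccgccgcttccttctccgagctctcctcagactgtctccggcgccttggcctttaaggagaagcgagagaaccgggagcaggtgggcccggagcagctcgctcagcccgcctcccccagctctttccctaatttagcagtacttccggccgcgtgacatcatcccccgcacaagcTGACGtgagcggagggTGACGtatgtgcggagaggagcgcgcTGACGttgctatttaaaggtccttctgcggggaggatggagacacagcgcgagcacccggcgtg
The Plk2 promoter held the full palindrome TGACGTCA, which overlaps 2 of its 3 core matches and was in 1.79% of 32851 promoters. This Homer1 promoter held 3 core matches and no full palindrome, and the core alone was in 20.8% of all promoters. A second Homer1 promoter (chr13:93307784-93308083) and those of Inhba and Rasgrp1 held 0 core matches, and that of Rheb held 1.

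The libraries held between 24514090 and 73626029 counts, and a count of 3 was worth at most 0.120 CPM (counts scaled to a common library size with TMM). This floor covers counting error only, whereas the intervals of fold changes come from the fits and include the spread between libraries. Pan-neuronal markers summed to between 3651 and 5832 CPM over 5 genes in all libraries, and all 5 were above 1 CPM. The 7 astrocyte markers summed to between 229 and 611 CPM at 6 h and between 1092 and 2114 CPM at 5 d. The 7 microglia markers, none of them at 0, summed to at most 26.0 CPM. Only P2ry12 was below 1 CPM in every library at 6 h, and only P2ry12 and Tmem119 were at 5 d. In cultures of mixed cells, fewer cells of a type and less RNA per cell cannot be told apart.

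The members spanned a wide range of levels. The length used to compare genes is that of all annotated exons merged, which can exceed that of the transcripts present. The order between members therefore depends on the annotation and is approximate. Per kilobase of exon, Nptxr led at 6 h with a mean of 52.2 CPM over 16 libraries, followed by Plk2 with 48.5, Rheb with 15.0, Homer1 with 8.12, Inhba with 4.09, Nptx1 with 4.02, Nptx2 with 3.39, Rasgrp1 with 2.66, and Arc with 0.741 CPM per kilobase. The ranges of Nptxr and Plk2 overlapped, as did those of the neighbours from Inhba down to Rasgrp1, whereas those of Rheb, Homer1, and Arc overlapped with no neighbour. At 5 d Nptxr reached 100.5 CPM per kilobase, clear of Plk2 with 43.5, and Inhba was now lowest with 0.845 CPM per kilobase. The Homer1 count pools long and short transcripts, so Homer1a could not be read separately. Nptxr shares exons on the same strand with Npcd, and its level is uncertain to that extent.

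**Figure D1:**
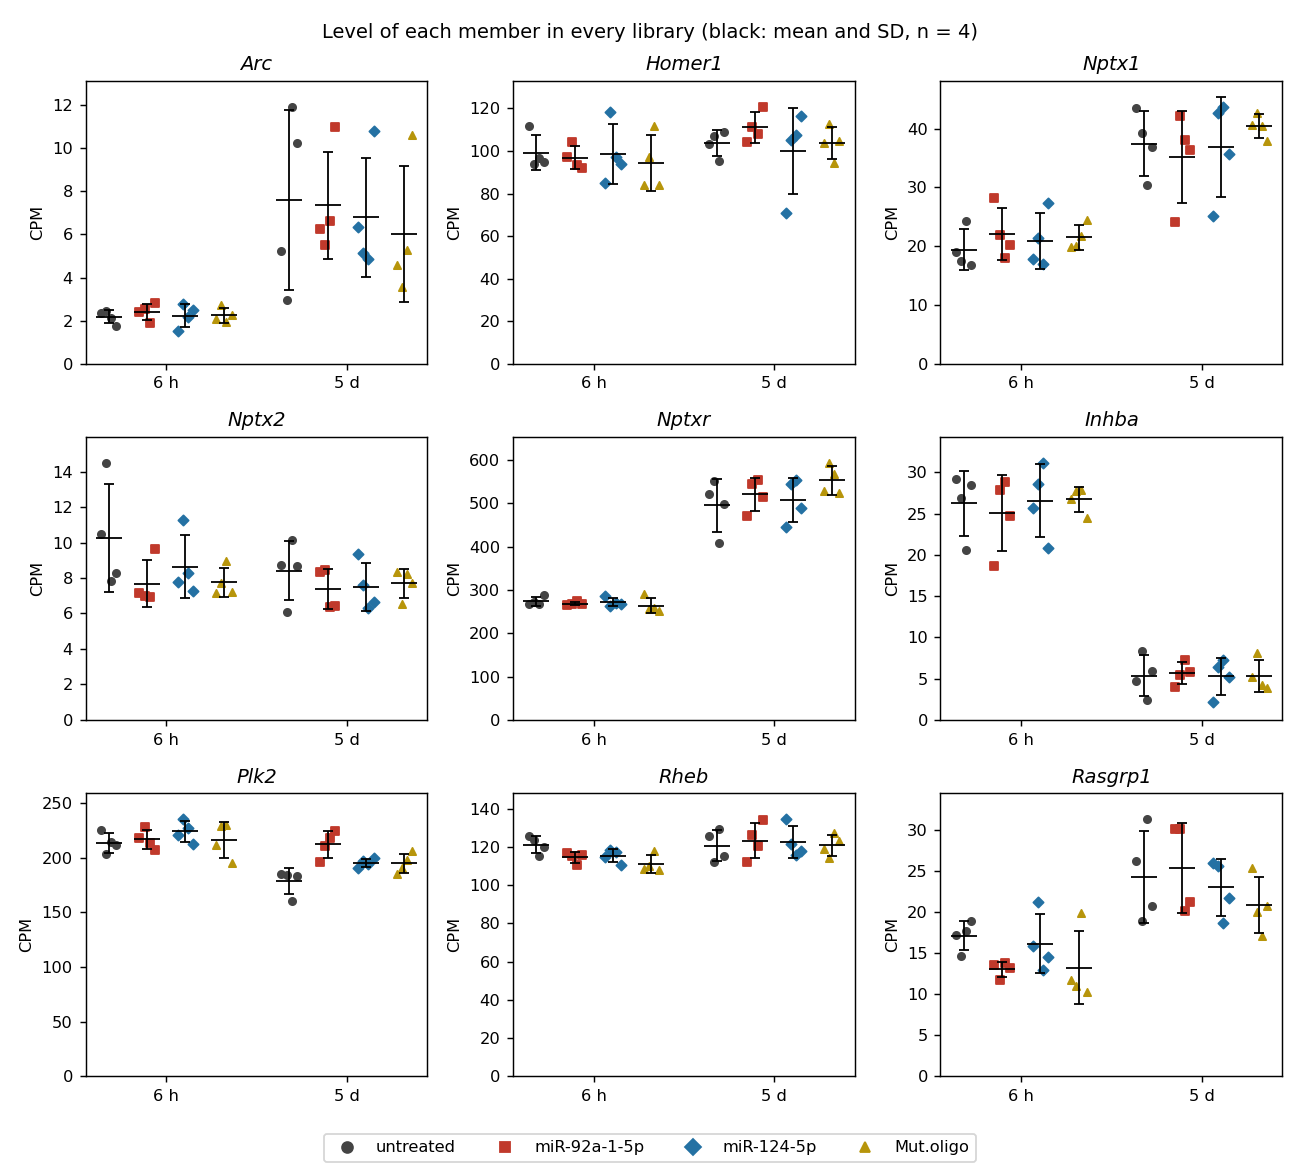
Levels of the 9 members in all 32 libraries, in CPM (vertical axes from 0) by time and group, with the mean and SD of 4 libraries in black. The mean of Inhba is lower and those of Arc, Nptx1, and Nptxr are higher at 5 d than at 6 h in each group, and at a given time point the groups overlap for most members.

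The first question was whether exposure changed the members. With edgeR's quasi-likelihood test, the threshold was an adjusted p (Benjamini-Hochberg) below 0.05 together with a change of more than 0.5 in either direction on the log2 scale. None of the 9 members passed against untreated at 6 h or 5 d after any of the 3 oligoribonucleotides, nor in any comparison between oligoribonucleotides, nor in the tests of whether a change differed between 5 d and 6 h. Few genes passed in all: 0% of 18755 genes in each comparison at 6 h, 0.00517% of 19333 after miR-92a-1-5p at 5 d, and 0% in the others. With unadjusted p under 0.05 there were at 6 h 2 members after Mut.oligo, 0 after miR-124-5p, and 3 after miR-92a-1-5p, where 9.49%, 4.54%, and 4.75% of all genes had such a p. At 5 d there were 0, 1, and 1 members, beside 2.79%, 2.60%, and 3.63% of all genes. DESeq2 also called none of the 9. After miR-92a-1-5p at 5 d, 0.203% of 18206 genes had an adjusted p under 0.05 with DESeq2 at any fold change.

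With the experiment batch as a covariate, which compares libraries of the same batch, more genes passed but again no member. The share of genes past the threshold at 6 h was 0.0213% after Mut.oligo, 0% after miR-124-5p, and 0.208% after miR-92a-1-5p, and at 5 d it was 0.0466%, 0.0259%, and 0.352% in the same order. Unadjusted p was under 0.05 at 6 h for 3, 1, and 4 members, beside 8.47%, 5.79%, and 13.4% of all genes. At 5 d it was so for 0, 2, and 4 members, beside 4.20%, 4.79%, and 10.8%. For miR-92a-1-5p against Mut.oligo there were 0 at 6 h (2.80%) and 5 at 5 d (8.87%). The members were chosen with earlier results of these data known, so these counts are no test of them as a group. In this fit, 2 exposed libraries at 6 h and the untreated replicate 3 at 5 d, each alone in its batch, carry no information on a change.

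**Figure D2:**
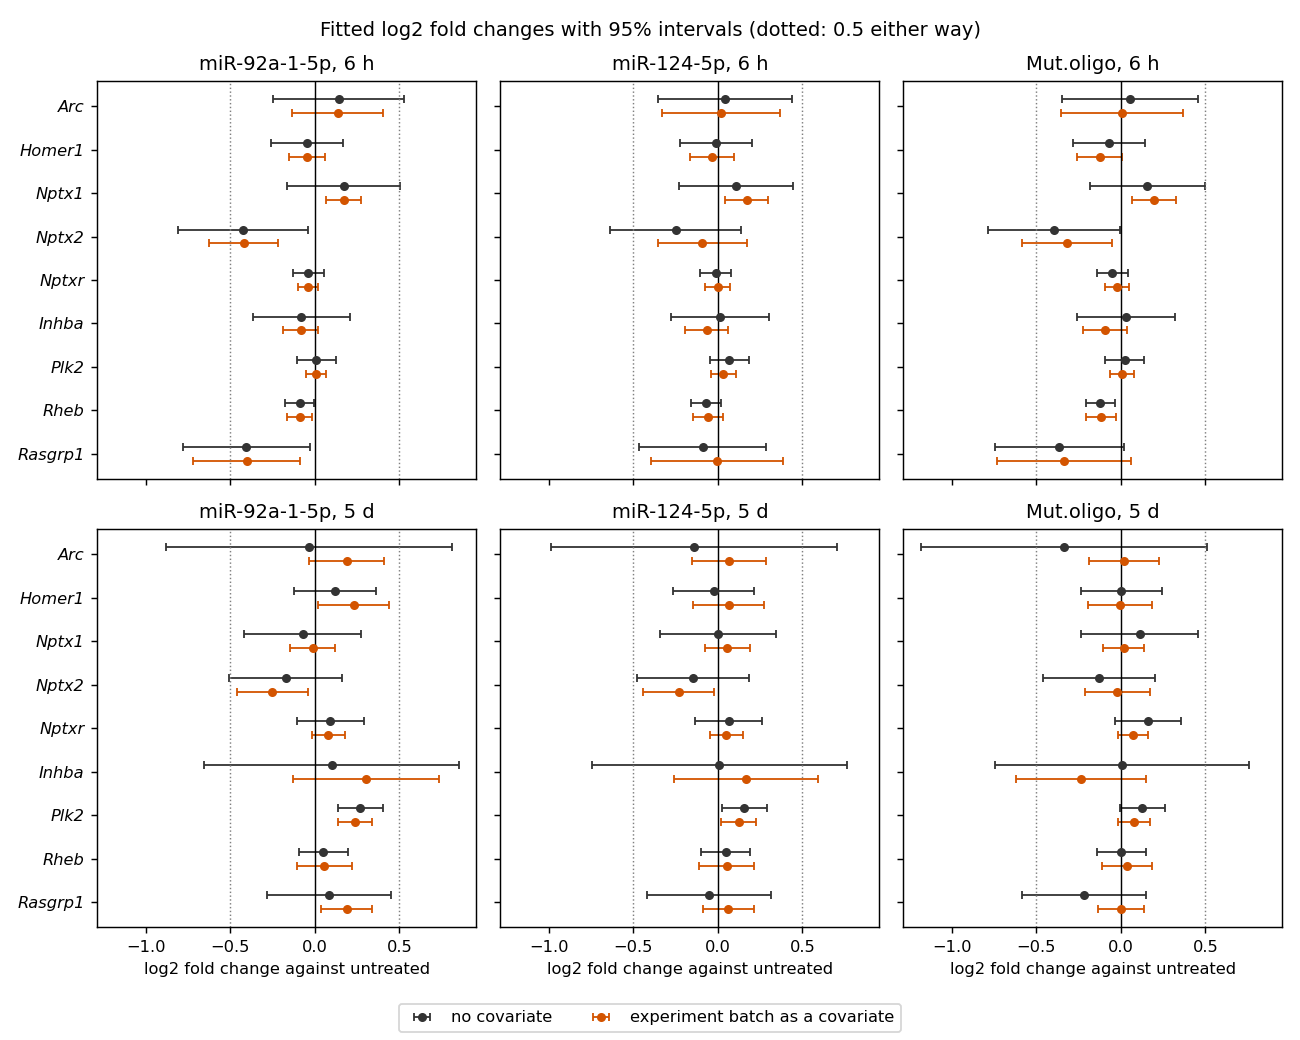
Log2 fold change of each member against untreated with its 95% interval (horizontal axes), by oligoribonucleotide and time, without (black) and with (orange) the experiment batch as a covariate. No estimate lies beyond the dotted lines at 0.5 and -0.5, and the intervals of Arc and Inhba at 5 d narrow with the covariate.

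Among the secreted pentraxins, Nptx2 was nearest to the threshold. The gene lies at chr5:144545902-144557478 (GRCm38, plus strand). At 6 h its level in replicates 1 to 4 was 10.5, 14.5, 7.85, and 8.27 CPM without exposure. With miR-92a-1-5p it was 7.17, 6.97, 6.91, and 9.65 CPM. After Mut.oligo it was 7.18, 7.69, 8.95, and 7.21 CPM. The exposed libraries lay mostly below the untreated ones, but the ranges overlapped. The log2 fold change after miR-92a-1-5p was -0.42 ± 0.18 (SE, adjusted p = 0.999, edgeR). With the batch covariate it was -0.42 ± 0.096 (SE, adjusted p = 0.0499, edgeR), short of the fold threshold, where 1.06% of all genes had an adjusted p under 0.05. In the 4 batches that held both groups, Nptx2 was lower after miR-92a-1-5p each time, by log2 differences from -0.59 to -0.13. After Mut.oligo the difference was -0.23 and -0.20 in 2 shared batches, and after miR-124-5p -0.11 and -0.092. Leaving out the untreated replicate 2, the highest library, reduced the change after miR-92a-1-5p to -0.22 without the covariate and -0.34 with it (adjusted p = 0.364, edgeR). Leaving out miR-92a-1-5p replicate 1 gave -0.51 with the covariate, which passed (adjusted p = 0.0130, edgeR).

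Nptx1 passed in no comparison at 6 h. Within batches its log2 differences from untreated were above 0 in each of the 4 pairs for miR-92a-1-5p, from 0.10 to 0.21, and in both pairs each for the other oligoribonucleotides, which share untreated libraries with them. The fitted log2 fold changes with the covariate were 0.17 ± 0.049 (SE) for miR-92a-1-5p, 0.17 ± 0.061 (SE) for miR-124-5p, and 0.20 ± 0.062 (SE) for Mut.oligo, with adjusted p of 0.128, 0.798, and 0.371 (edgeR). Without the covariate, leaving out miR-124-5p replicate 4 turned the sign for miR-124-5p (-0.052). Nptxr, the membrane-anchored pentraxin, stayed between 252 and 290 CPM in all 16 libraries at 6 h, and its fitted change after miR-92a-1-5p was -0.041 with an interval from -0.13 to 0.051.

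Rasgrp1 (chr2:117279993-117343001, minus strand) was the one member with an exposed group fully apart from untreated at 6 h. Of all genes tested, 4.3% were fully apart in either direction with Mut.oligo, 3.35% with miR-92a-1-5p, and 3.24% with miR-124-5p. Untreated replicates 1 to 4 held 17.2, 14.7, 17.7, and 19.0 CPM. The miR-92a-1-5p replicates held 13.5, 11.7, 13.7, and 13.2 CPM. Every one of these lay below every untreated library, yet the log2 fold change of -0.41 ± 0.18 (SE) did not pass (adjusted p = 0.999, and 0.239 with the batch covariate, edgeR), with 0.208% of all genes past the threshold in the latter fit. Mut.oligo gave 11.8, 11.0, 19.8, and 10.3 CPM, so that 3 libraries were below and 1 above all untreated libraries. In the 2 batches shared with untreated, Rasgrp1 differed after Mut.oligo by -0.69 and, for replicate 3, by 0.21 on the log2 scale. Without Mut.oligo replicate 3, Rasgrp1 fell by 0.86 on the log2 scale with the batch covariate and passed (adjusted p = 0.00118, edgeR). That fit leaves out the shared batch in which Rasgrp1 was higher. With miR-124-5p the level spread from 12.9 to 21.2 CPM. The 7 interneuron markers, none of them at 0, summed to between 947 and 991 CPM in untreated libraries at 6 h. Their sum was between 899 and 931 CPM after miR-92a-1-5p. It was between 835 and 946 CPM after miR-124-5p and between 786 and 968 CPM after Mut.oligo. The part of these markers in the Nptx2 and Rasgrp1 values was not tested.

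Rheb passed in no comparison at either time point. Its mean was 121 ± 4.40 CPM (SD, n = 4) in untreated neurons at 6 h, 111 ± 4.71 CPM (SD, n = 4) with Mut.oligo, 115 ± 3.43 CPM (SD, n = 4) with miR-124-5p, and 115 ± 2.82 CPM (SD, n = 4) with miR-92a-1-5p. The log2 fold change after Mut.oligo was -0.12 with an interval from -0.21 to -0.034 (adjusted p = 0.402, edgeR). Within batches at 6 h, the log2 differences after miR-92a-1-5p ran from -0.12 to 0.017. They were -0.067 and -0.059 after miR-124-5p and -0.15 and -0.090 after Mut.oligo, in pairs that share untreated libraries.

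**Figure D3:**
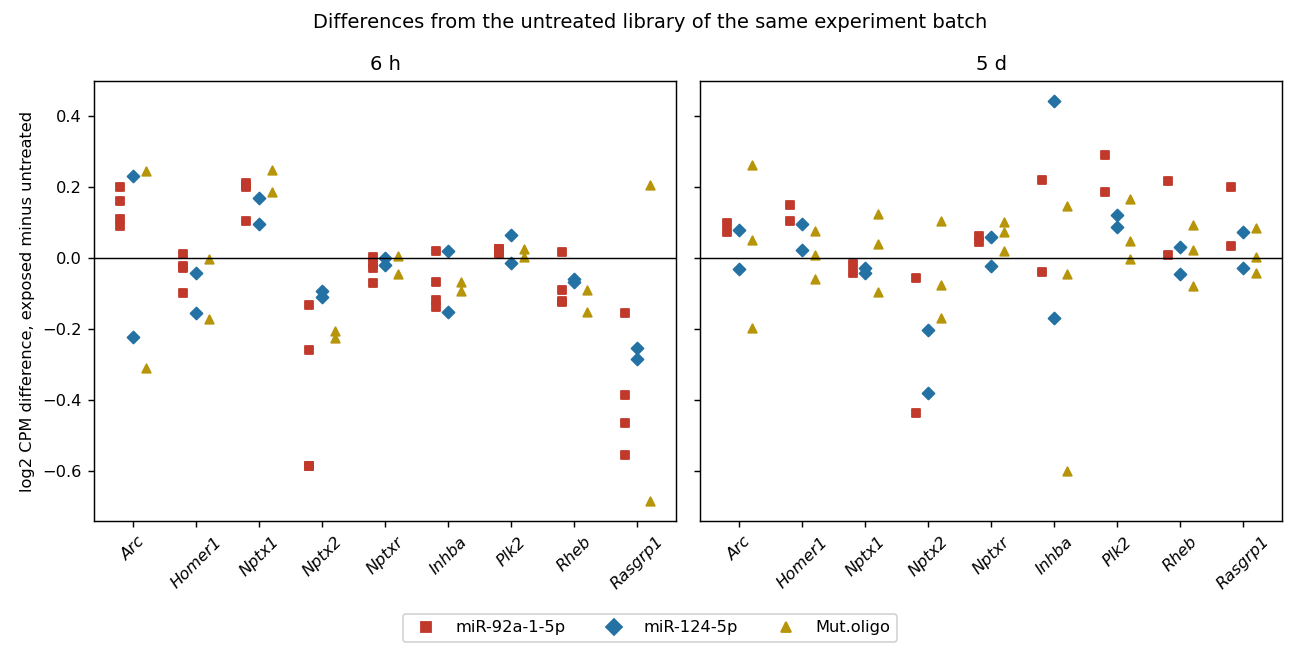
Difference in log2 CPM between each exposed library and the untreated library of the same experiment batch (vertical axis), by member. At 6 h all points of Nptx1 lie above 0 and all points of Nptx2 below 0, and at 5 d both points of Plk2 after miR-92a-1-5p lie above 0.18.

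At 5 d the kinase gene Plk2 (chr13:110395046-110400844, plus strand) was nearest to the threshold. Untreated replicates 1 to 4 held 185, 185, 161, and 184 CPM. After miR-92a-1-5p the values were 196, 211, 218, and 225 CPM, and after miR-124-5p 191, 197, 195, and 200 CPM. Both sets lay above the same 4 untreated libraries, of which replicate 3 stood below the others, and 2.87% and 1.9% of all genes were fully apart in these comparisons. Mut.oligo gave 185, 191, 198, and 206 CPM, where 1.97% of all genes were fully apart. For Plk2, 3 Mut.oligo libraries lay above all untreated ones, and replicate 1 (185.08 CPM) was just below untreated replicate 1 (185.185 CPM). The log2 fold change after miR-92a-1-5p was 0.27 ± 0.063 (SE, adjusted p = 0.419, edgeR) and 0.24 ± 0.048 (SE, adjusted p = 0.0535, edgeR) with the batch covariate. DESeq2 gave 0.27 (adjusted p = 0.0159), where 0.203% of genes had an adjusted p under 0.05, and with the batch 0.24 (adjusted p = 0.000565), where 1.79% did. The change, about 1.2-fold, stayed under the fold threshold in all of these fits. Without untreated replicate 3, the lowest library, it was 0.22 (adjusted p = 0.821, edgeR). Against Mut.oligo the difference was 0.14 with an interval from 0.011 to 0.28 (adjusted p = 1.00, edgeR). The 4 proliferation markers, none of them at 0, summed to between 61.4 and 70.9 CPM in the untreated libraries at 5 d. Their sum was between 30.7 and 51.4 CPM with Mut.oligo, between 24.0 and 56.8 CPM with miR-92a-1-5p, and between 33.8 and 50.3 CPM with miR-124-5p. The 7 markers of the oligodendrocyte lineage summed to between 170 and 206 CPM in untreated libraries, to between 127 and 144 CPM with Mut.oligo, to between 88.4 and 163 CPM with miR-92a-1-5p, and to between 114 and 183 CPM with miR-124-5p, the last overlapping with untreated. Both marker sums were below untreated after Mut.oligo too. Their part in the Plk2 result was not tested. At 6 h Plk2 differed from untreated by only 0.0080 after miR-92a-1-5p, with an interval from -0.11 to 0.12, and the difference between the time points was 0.26 ± 0.083 (SE, adjusted p = 1.00, and 0.0649 with the batch covariate, edgeR).

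Arc, the effector most closely tied to neuronal activity, did not separate the groups. At 6 h it was low, between 1.51 and 2.80 CPM in all 16 libraries, from 42 to 210 counts. At 5 d it was 5.24, 2.97, 11.9, and 10.2 CPM in untreated replicates 1 to 4, and 6.27, 5.52, 6.63, and 11.0 CPM after miR-92a-1-5p. Mut.oligo gave 4.57, 3.56, 5.29, and 10.6 CPM, and miR-124-5p gave 6.36, 5.13, 4.88, and 10.8 CPM. The levels followed the experiment batch. The 4 libraries of one batch, 1 from each group, lay between 10.2 and 11.0 CPM, those of a different batch between 4.57 and 5.52 CPM, and the untreated and Mut.oligo libraries of another at 2.97 and 3.56 CPM. Batches accounted for 96.7% of the sum of squares of log2 CPM of Arc at 5 d and groups for 5.07%, compared with medians of 58.7% and 12.7% over 13654 genes. With 6 batches over 16 libraries, a large share is common. The shares of batches and of groups were computed separately and overlap, so they are not to be added. The interval of the change after miR-92a-1-5p at 5 d ran from -0.88 to 0.81 without the batch covariate and from -0.032 to 0.41 with it. Without the covariate the change at 6 h was 0.14, with an interval from -0.25 to 0.53. Within batches, Arc was higher with miR-92a-1-5p in each of 4 pairs at 6 h, by log2 differences from 0.092 to 0.20. It was higher in both pairs at 5 d, by 0.075 and 0.10. The other oligoribonucleotides went both ways at each time point. At 6 h their differences ran from -0.31 to 0.25 with Mut.oligo and from -0.22 to 0.23 with miR-124-5p.

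Nptx1, Nptxr, and Rasgrp1 at 5 d also went with the batch, with 96.4%, 93.9%, and 91.3% between batches. Nptx1 was at 24.1 and 25.2 CPM in a batch of 1 miR-124-5p library and 1 miR-92a-1-5p library, at 30.4 CPM in the untreated replicate 3, and between 35.8 and 43.7 CPM in the other 13 libraries. Rheb was least tied to batches, with 28.6%.

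**Figure D4:**
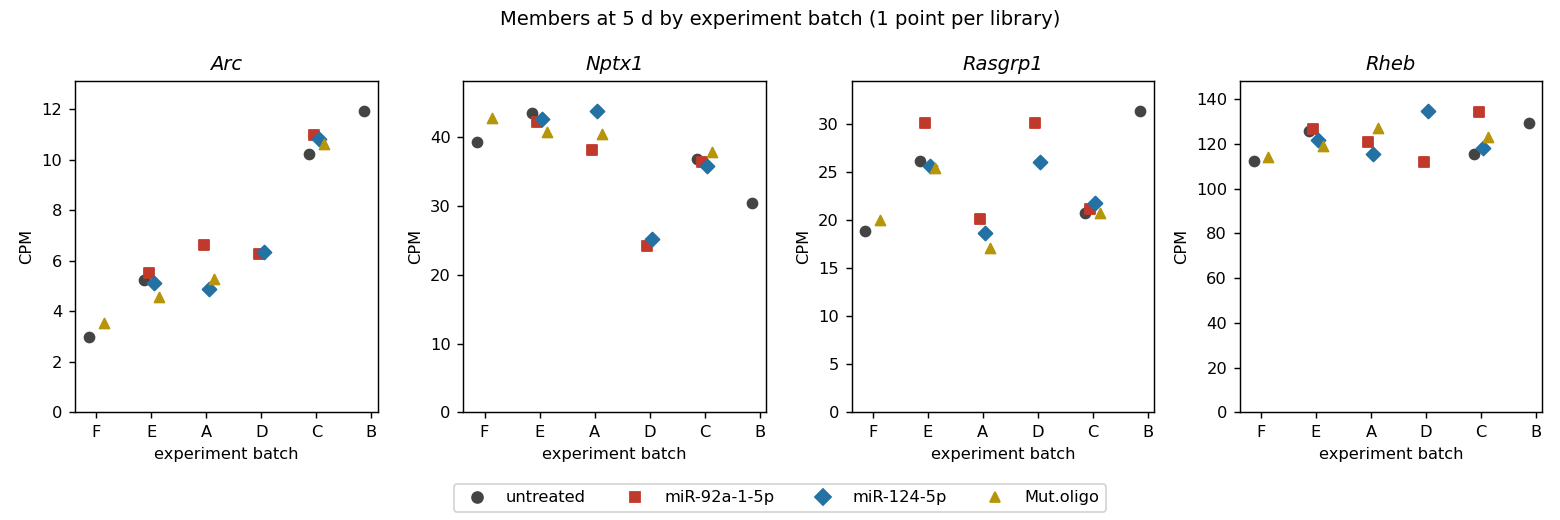
CPM of Arc, Nptx1, Rasgrp1, and Rheb at 5 d (vertical axes from 0) by experiment batch, 1 point per library, coloured by group. Arc separates by batch, with all 4 libraries of batch C between 10.2 and 11.0 CPM, whereas Rheb overlaps across batches.

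Homer1 and Inhba passed in no comparison between exposures. Homer1 was between 84.2 and 118 CPM at 6 h and between 70.9 and 121 CPM at 5 d. The lowest value was a miR-124-5p library, whose 3 companions were between 105 and 117 CPM. Inhba was between 18.7 and 31.1 CPM at 6 h. At 5 d it ranged from 2.15 to 8.35 CPM, and the interval of its change after miR-92a-1-5p ran from -0.65 to 0.85 without the batch covariate and from -0.13 to 0.73 with it. Against Mut.oligo, Inhba after miR-92a-1-5p was at 0.54 ± 0.18 (SE, adjusted p = 0.539, edgeR) with the covariate.

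The second question was how the members changed with time in culture. Between untreated neurons at 6 h and at 5 d, 4 of 9 members passed, 3 higher and 1 lower, while 33.5% of 20425 genes did, 19.1% higher and 14.3% lower. Read against that background, the count of members is no result about them as a group. Time and experiment batch cannot be told apart here. Inhba, at 29.2, 26.9, 20.5, and 28.5 CPM at 6 h, was 4.70, 8.35, 2.39, and 5.91 CPM at 5 d, and fell by 2.33 ± 0.28 (SE, adjusted p = 4.53e-08, edgeR) on the log2 scale. Arc rose by 1.79 ± 0.35 (SE, adjusted p = 8.52e-05, edgeR), from 2.37, 2.43, 2.14, and 1.76 CPM at 6 h, and every 5 d library was above every 6 h library. Nptx1 rose by 0.92 ± 0.17 (SE, adjusted p = 4.85e-05, edgeR), from between 16.7 and 24.4 CPM to between 30.4 and 43.5 CPM. Nptxr rose by 0.83 ± 0.073 (SE, adjusted p = 9.91e-11, edgeR), from between 267 and 289 CPM to between 409 and 553 CPM. Plk2 was lower by less than the fold threshold (-0.29, adjusted p = 0.000135, edgeR), and Rasgrp1 was at 0.48 (adjusted p = 0.0292, edgeR). Homer1 (0.036), Rheb (-0.031), and Nptx2 (-0.31) did not pass the adjusted p. All 7 astrocyte markers were higher and all 4 proliferation markers lower at 5 d, the latter summing to between 154 and 247 CPM in untreated neurons at 6 h. Of 7 excitatory neuron markers, 2 passed as higher and 4 as lower. Of 7 interneuron markers, 0 passed as higher and 4 as lower, and of 5 pan-neuronal markers 1 passed each way. The part of these markers in the changes of the members was not tested.

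Genes that work with the members, in lists written with earlier results of these data known, were followed in the same fits. Of the lists of Arc partners, Homer scaffold and group I mGluR genes, pentraxin targets, activin signaling, polo-like kinases and Plk2 substrates, Rheb and mTORC1, and Ras and Rasgrp family genes, no gene passed against untreated at either time point, with or without the batch covariate. Of 25 other activity-regulated genes some passed with the covariate. In the fit without the covariate 0 of 25 passed after any oligoribonucleotide, with a median log2 fold change at 6 h of -0.26 after Mut.oligo, -0.15 after miR-124-5p, and -0.27 after miR-92a-1-5p, beside a median over all genes of 0.0055 for miR-92a-1-5p. With the covariate at 6 h, 7 of 25 fell and 0 rose after miR-92a-1-5p, where 0.208% of all genes passed. With Mut.oligo 2 of 25 fell, where 0.0213% of all genes passed, and with miR-124-5p 0 of 25 passed, where 0% did. The study had already reported Fos and Vgf as lower at 6 h in these data. Since this list was written with such results known, its counts are no result about the list. Npas4, an activity-induced transcription factor, fell by 0.84 ± 0.12 (SE, adjusted p = 0.00494, edgeR) after miR-92a-1-5p and by 1.04 ± 0.15 (SE, adjusted p = 0.0267, edgeR) after Mut.oligo. Fos, the AP-1 subunit, fell by 0.73 ± 0.12 (SE, adjusted p = 0.00767, edgeR), and Vgf, a secreted neuropeptide precursor, fell by 0.56 ± 0.096 (SE, adjusted p = 0.0111, edgeR), again with miR-92a-1-5p. Nr4a1 fell by 0.72 ± 0.074 (SE, adjusted p = 0.00123, edgeR) after Mut.oligo. At 5 d none of the 25 passed. Over time in untreated neurons, 8 of the 25 rose and 7 fell, where 19.1% of all genes rose and 14.3% fell, Egr3 and Egr2 by 1.73 and 2.59 upward and Nr4a2 by -1.59.

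The counts of the other lists over time are to be read against the same 19.1% of all genes that rose and 14.3% that fell, and are no result about a list. Of 11 Arc partners, 3 rose, including Camk2a by 1.64, and 3 of 5 pentraxin targets rose, including the AMPA receptor subunit Gria3 by 1.02. Of 12 activin signaling genes, 2 rose and 3 fell, among them the activin antagonists Fstl3 by 2.61 and Fst by -1.66. Fstl3 was low in untreated libraries at 6 h, between 0.158 and 0.420 CPM, not far above the counting floor. Fst spread from 6.03 to 31.4 CPM in untreated libraries at 5 d. Of 9 Homer scaffold and group I mGluR genes, 2 rose, among them Grm5 by 1.14, and 1 fell. Of 8 polo-like kinases and Plk2 substrates 1 rose and 3 fell, of 12 Rheb and mTORC1 genes 3 rose and 1 fell, and of 8 Ras and Rasgrp family genes 1 rose and 1 fell.

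Members went together in part across libraries, which share batches. At 6 h Homer1 and Plk2 had a Pearson r of 0.74 and a Spearman rho of 0.79 over 16 libraries, against an r of 0.37 at 5 d. Nptx1 and Inhba had an r of -0.82 at 6 h and of 0.70 at 5 d. Nptxr and Inhba had an r of 0.82 at 5 d and of 0.16 at 6 h, and Nptx2 and Inhba an r of -0.80 at 5 d and of 0.30 at 6 h. The pairs were picked for a large value at 1 time point, and at the other it was smaller or of the opposite sign. With the mean of each time point removed, the gene most like Arc over 32 libraries was Snhg17 (r = 0.81), followed by Egr1 (r = 0.79) and Srsf6 (r = 0.78). Those most like Homer1 were Arih1 (r = 0.94), Selenoi (r = 0.93), and Lcorl (r = 0.93), and among those most like Inhba were Lmtk2 (r = 0.94) and Unc13a (r = 0.92). Nptx2 was most like St8sia5 (r = 0.84), Nap1l5 (r = 0.82), and Mir670hg (r = 0.79), and Nptxr was most like Gpr12 (r = 0.88), Ppp2r2c (r = 0.87), and Sel1l3 (r = 0.87). For Rasgrp1 these were Pls3 (r = 0.85), Adcy8 (r = 0.83), and Amigo2 (r = 0.77), and for Rheb Srp19 (r = 0.80), Hbs1l (r = 0.79), and Mphosph10 (r = 0.77). Nptx1 (Itgbl1, r = 0.77, Atp2c1, r = 0.75, and Hspa12a, r = 0.74) and Plk2 (Pnmal1, r = 0.72, Siah2, r = 0.71, and Wasf1, r = 0.71) had the weakest matches. These correlations are descriptions across libraries of shared batches.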

How the data were processed

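Total RNA of cortical neuron cultures was sequenced as stranded mRNA libraries. The deposited values are raw counts per Ensembl gene, which the authors made by mapping reads to GRCm38 with STAR and assigning them to exons with featureCounts (Subread), using strand. From these counts, CPM were computed on TMM-scaled library sizes of all 32 libraries (factors 0.929 to 1.07). Fits used edgeR 4.0.16 in R 4.3.3, genes that reached 5 counts in 3 or more libraries, all 16 libraries of a time point (all 32 for time), the quasi-likelihood test, no covariate, and Benjamini-Hochberg adjustment over all genes tested. Intervals are 95% intervals. The threshold was an adjusted p below 0.05 with a change beyond 0.5 on the log2 scale. DESeq2 1.42.0 was an alternative, as were the experiment batch, the replicate number, RLE size factors, other filters, and leaving out each library. The scripts were tested on simulated data. Gene positions came from GENCODE M21, also GRCm38, and sequences from RefSeq and GENCODE. Levels per kilobase used the merged exon length. Similar genes were ranked by Pearson r of log2 CPM (prior count 2) among genes with a mean of at least 1 CPM. All 9 members were named in every condition, and of related lists up to 3 genes past the threshold per comparison. The members and lists were chosen with earlier results of these data known. Depth ranged from 24514090 to 73626029 counts. Replicates of a group differed by more than sampling noise in all 48 pairs (chi-square per degree of freedom of at least 6.60). A few items are not reported here.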

Additional observations from a re-analysis of the deposited data

Results flagged for a closer look

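In 72 sets of 4 libraries (9 members in 8 groups), the highest or lowest library stood far from the others 4 times by Dixon's ratio, against about 3.6 that chance gives. Rasgrp1 was at 19.8 CPM in Mut.oligo 6 h replicate 3, with the others between 10.3 and 11.8 CPM. Nptx2 was at 9.65 CPM in miR-92a-1-5p 6 h replicate 4, with the others between 6.91 and 7.17 CPM. Plk2 was at 161 CPM in untreated 5 d replicate 3, with the others between 184 and 185 CPM. Homer1 was at 112 CPM in untreated 6 h replicate 1, with the others between 93.9 and 96.7 CPM.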

How the results depend on the processing

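The number of members past the threshold stayed at 0 in the 15 comparisons other than time under every alternative that kept all libraries (batch covariate, replicate block, DESeq2, RLE size factors, other filters, only the 2 groups, and no minimum fold change with edgeR and no covariate). Over time, 4 members passed, 5 without the filter on low counts, 6 with no minimum fold change, and 4 to 5 when 1 library was left out. In the main fit over time, 6 of 9 members had an unadjusted p under 0.05 (edgeR), beside 59.1% of all genes. The counts over time are no result about the members as a group. Leaving out 1 library with the batch covariate gave 0 to 1 members after miR-92a-1-5p against untreated at 6 h (1, Nptx2, without miR-92a-1-5p replicate 1), 0 to 1 after Mut.oligo against untreated and 0 to 1 for miR-124-5p against Mut.oligo (1, Rasgrp1, without Mut.oligo replicate 3). With all libraries kept, 0.208% of all genes passed after miR-92a-1-5p and 0.0213% after Mut.oligo. The shares in the fits without 1 library are not given here, so these counts are no result about the members. Without the covariate, leaving out 1 library turned the sign of small changes: Nptx1 after miR-124-5p at 6 h ranged from -0.052 to 0.24, Rasgrp1 after miR-92a-1-5p at 5 d from -0.022 to 0.23, and Rheb over time from -0.070 to 0.036. The cause was not tested.

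The replicate number was not treated as a pairing: at 6 h 2 of 24 same-numbered pairs of libraries shared a batch, while at 5 d 13 of 24 did. Deviations from group means of same-numbered libraries had a median correlation of -0.19 at 6 h (lowest -0.49) and 0.26 at 5 d (lowest -0.45), against 0.63 and 0.52 for libraries of the same batch. With the replicate block, 0 members passed against untreated and 4 over time, and Plk2 after miR-92a-1-5p at 5 d was at 0.27. At these depths Arc at 6 h, with 42 to 210 counts, was the least precisely counted member.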
